A study of Mus musculus with 2 samples.

Results

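Dense clusters of distal open chromatin were chains of DNase I peaks that lay close together away from gene starts in mouse adrenal gland. The longer of the peak lists deposited for each sample was used, and peaks of the samples that overlapped by at least 1 bp were merged into regions. A region was kept when it held a peak of both samples and its midpoint lay over 1 kb from every transcription start site (TSS) of the GENCODE vM21 basic annotation (assembly mm10). Kept regions whose edges lay at most 3 kb apart were chained, and a chain of 5 or more regions was called a cluster. This gave 297 clusters among 56415 chains (0.526%), holding 1810 of 72598 shared distal regions (2.49%). The members were chosen by the positions of these peaks and ranked by their signal, so the number, spacing and signal of the regions are a description, and no test was made on them.

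DNase-seq cuts accessible chromatin with DNase I and sequences the cut ends. The samples were 2 pools of adrenal gland, replicate 1 and replicate 2, each said to hold 6 adrenal biosamples from male B6CASTF1/J mice (an F1 hybrid strain) aged 8 to 10 months. There was no treatment and no second group. Each pool was 1 library, and the labels gave both pools the same donor record, so the spread between them may be technical and no comparison between groups could be made. The mice carry a second parental genome beside the C57BL/6J reference, and the peak lists do not separate alleles.

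Regulatory elements such as enhancers and insulators bind transcription factors and open the chromatin there. Genes that are highly expressed or that define a cell type often have many such elements close together, and these stretches have been described as stretch or super-enhancers when histone marks are also present. Dense accessible DNA also arises where short genes lie close together, as in arrays of transfer RNA (tRNA) genes, which RNA polymerase III transcribes from promoters inside the gene.

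The sequences below show what lies under some of the strongest regions. Each is the midpoint of a region with 75 bases on either side, read from the RefSeq GRCm38.p6 (mm10) FASTA on the plus strand, and therefore the C57BL/6J allele. The first pair come from the cluster of highest summed signal by the mean of the pools. Capitals mark an annotated tRNA gene, for aspartate at chr11:69040966-69041116 and proline at chr11:69040316-69040466.
tRNA-Asp region: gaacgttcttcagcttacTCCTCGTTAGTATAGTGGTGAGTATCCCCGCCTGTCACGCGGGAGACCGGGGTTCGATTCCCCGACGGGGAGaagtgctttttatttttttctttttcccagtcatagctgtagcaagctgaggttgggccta
tRNA-Pro region: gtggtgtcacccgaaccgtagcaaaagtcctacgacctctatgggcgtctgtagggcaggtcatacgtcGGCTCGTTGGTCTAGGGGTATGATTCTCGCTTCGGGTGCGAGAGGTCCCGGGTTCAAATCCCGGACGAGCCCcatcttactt
These are shown because the tRNA gene covers the midpoint of the region, though in the tRNA-Pro region most of the gene lies to one side. The region second in signal in this cluster, with 5.02 in replicate 1 and 7.13 in replicate 2, is not shown. Its tRNA-Trp gene does not reach the midpoint.

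The next sequences come from clusters without tRNA genes. They are the strongest region of the Star cluster (chr8:25806286-25806436), of the Cirbp cluster (chr10:80159876-80160026), of the cluster between Nr1d1 and Msl1 (chr11:98783436-98783586), of the cluster nearest Lrrc74a (chr12:86801286-86801436), of the B4galt5 cluster (chr2:167313946-167314096) and of the Cib4 and Kcnk3 cluster (chr5:30551276-30551426). Capitals mark matches to the consensus of AP-1 (TGANTCA), a factor of the Fos and Jun families, of an E-box form (CAGCTG), bound by basic helix-loop-helix factors, or of NR5A1 (CAAGGTCA), the nuclear receptor SF-1 that drives steroid-producing genes.
Star: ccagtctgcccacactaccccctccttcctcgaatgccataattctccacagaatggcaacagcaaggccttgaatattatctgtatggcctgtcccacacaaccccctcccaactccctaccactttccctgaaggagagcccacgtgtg
Cirbp: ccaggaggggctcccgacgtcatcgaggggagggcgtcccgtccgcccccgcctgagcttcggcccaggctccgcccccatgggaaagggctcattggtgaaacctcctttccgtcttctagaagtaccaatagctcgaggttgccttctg
Nr1d1-Msl1: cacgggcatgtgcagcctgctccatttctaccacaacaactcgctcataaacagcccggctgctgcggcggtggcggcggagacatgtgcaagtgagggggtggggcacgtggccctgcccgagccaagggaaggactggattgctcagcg
Lrrc74a: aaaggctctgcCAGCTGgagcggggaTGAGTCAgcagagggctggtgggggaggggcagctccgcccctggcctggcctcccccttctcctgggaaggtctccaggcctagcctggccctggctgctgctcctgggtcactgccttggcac
B4galt5: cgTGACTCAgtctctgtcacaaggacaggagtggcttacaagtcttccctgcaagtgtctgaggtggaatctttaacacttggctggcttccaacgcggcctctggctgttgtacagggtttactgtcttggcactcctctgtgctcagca
Cib4-Kcnk3: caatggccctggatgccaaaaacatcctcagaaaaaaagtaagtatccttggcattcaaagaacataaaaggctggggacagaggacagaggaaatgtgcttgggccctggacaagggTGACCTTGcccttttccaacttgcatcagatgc
The Star, Cirbp and Nr1d1-Msl1 windows held no match to any of the 15 consensuses searched. CACGTG, another E-box form, was not among these, and its letters occur in the Star and Nr1d1-Msl1 windows. The Lrrc74a window held an E-box and an AP-1 match, the B4galt5 window an AP-1 match, and the Kcnk3 window an NR5A1 match on the minus strand. A match describes the letters and is no evidence that a factor was bound.

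Replicate 1 had 117371 peaks and replicate 2 had 146307, with median signals of 0.699 and 0.727 in the authors' units. The scaling of that signal and the number of reads were not given in the sources used here, so depth is unknown and no interval on a signal was computed. Signal in replicate 2 was higher by a median of 0.34 (log2) over all shared distal regions, and cluster ratios are read against that value. Adrenal origin was checked by promoter peaks in both pools. Of 8 cortex markers 7 had one (not Hsd3b1), and of 6 chromaffin markers 5 had one (not Pnmt). Over all 21911 protein-coding genes 61.9% had one, so counts on so few markers are a weak check. Markers of other tissues had 1 of 5 for hepatocytes (Ttr), 1 of 5 for kidney tubule (Aqp2), 2 of 5 for skeletal muscle and 2 of 5 for adipocytes. Their part in the clusters was not tested.

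Most chains were short. There were 44845 chains of 1 region, 8532 of 2, 2085 of 3 and 656 of 4, against 185 clusters of 5 regions and 17 clusters of 10 or more. The longest had 27. A cluster had a median of 5 regions over a span of 6503 bp (2060 to 26080), and its regions covered a median of 27.0% of the span, with a median gap of 750 bp. The clusters held 3.99% of the shared distal signal in replicate 1 and 3.90% in replicate 2, on 3.24% of the bases.

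**Figure D1:**
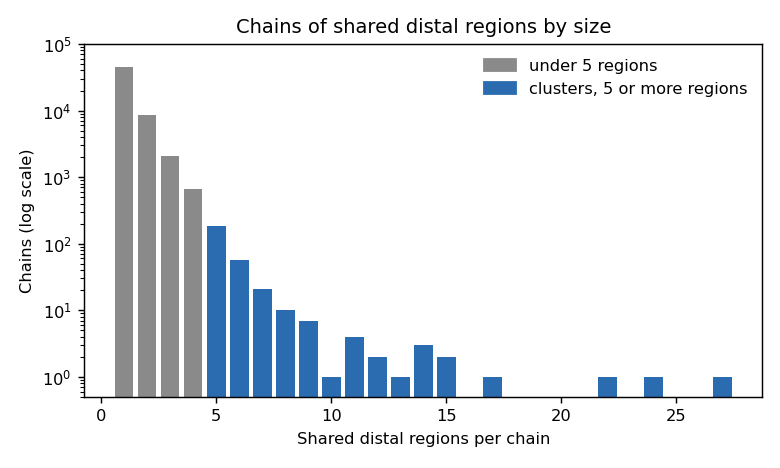
Number of chains (log axis) by the number of shared distal regions they hold. Grey bars are chains of under 5 regions, led by 44845 single regions, and blue bars are the 297 clusters, which reach 27 regions.

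The cut at 5 regions was not a break in the data. The 656 chains of 4 regions had a median summed signal of 5.54, averaged over the pools, and the 185 clusters of 5 had one of 8.07. The strongest chain of 4, at chrX:169996921-169999540 nearest Gm21887, had 28.1 in replicate 1 and 35.8 in replicate 2, above the strongest cluster of 5 regions at a mean of 24.7. Inside clusters 18 gaps were over 2.9 kb and up to 3 kb, and 4 gaps beside clusters were over 3 kb and up to 3.1 kb. For 30 cluster regions the midpoint lay over 1 kb and up to 1.1 kb from a TSS.

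Summed signal was spread over many clusters and not held by a few. From here on a pair of signal values gives replicate 1 and then replicate 2, in the authors' units. Cluster medians were 8.32 in replicate 1 and 10.6 in replicate 2, and the ranges were 1.66 to 35.2 and 1.53 to 46.6. The first 12 clusters, ranked by the mean of the pools, held 11.2% of cluster signal in replicate 1 and 11.4% in replicate 2, and 21 clusters were among the first 25 of both pools. Replicate 2 was higher in 291 clusters and lower in 6, with a median log2 ratio of 0.32, close to the 0.34 of all shared distal regions. Within a cluster the strongest region gave a median of 33.2% of the signal (11.7% to 68.4%), and over 50% in 26 clusters.

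**Figure D2:**
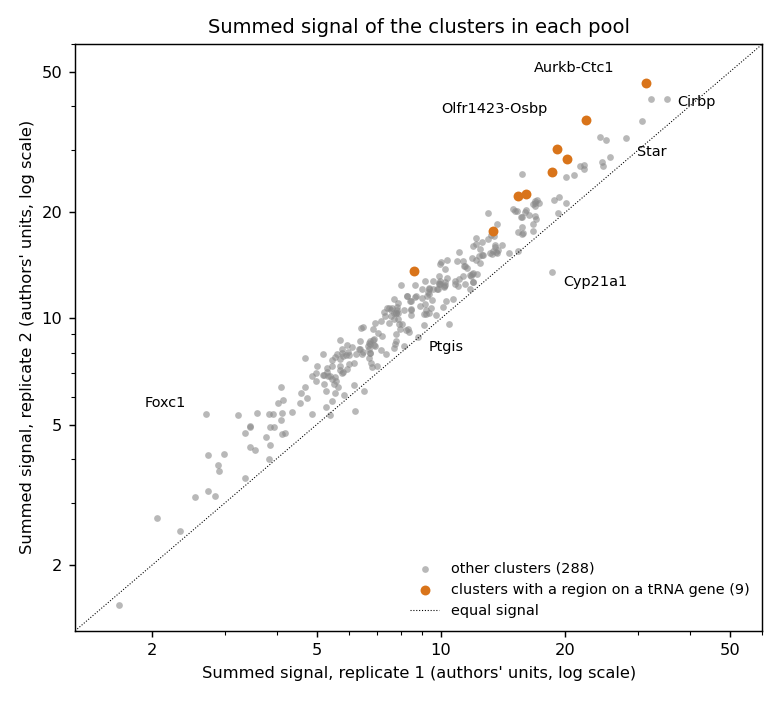
Summed signal of each cluster in replicate 1 (horizontal) and replicate 2 (vertical), in the authors' units on log axes. Orange points are the 9 clusters with a region on a tRNA gene, and the dotted line is equal signal. The Aurkb-Ctc1 cluster reached 31.4 and 46.6, and the Cyp21a1 cluster lay below the line at 18.6 and 13.5.

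The cluster of highest mean signal over the pools was an array of tRNA genes. It ranked 1 in replicate 2 and 3 in replicate 1, after the Cirbp and Zfp503 clusters (35.2 and 32.3 in that pool). It lay at chr11:69034757-69041920 from the end of Ctc1, a telomere maintenance gene, towards Aurkb, a mitotic kinase gene. Its 11 regions summed to 31.4 in replicate 1 and 46.6 in replicate 2. Of these, 7 lay on tRNA genes, 1 each for Asp, Gly, Ile, Pro, Ser, Thr and Trp. The tRNA-Asp region printed above had 5.38 and 8.27, the strongest in the cluster, and the tRNA-Pro region had 3.57 and 6.07. A second tRNA cluster of 8 regions, 18.6 and 26.1, followed 20360 bp further on beside Borcs6 and Tmem107, with 4 tRNA genes, and lay 27277 bp from Per1, a clock gene that glucocorticoids also induce. The pair held 19 regions over 33184 bp.

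Such arrays recurred. In all, 9 clusters had a region on a RefSeq tRNA gene, 2 of the first 12 by signal and 5 of the first 25. They included rank 6, at chr19:12002201-12013560 between Osbp and the olfactory receptor gene Olfr1423, with 12 regions, 22.4 and 36.5, and 8 tRNA genes for Arg, Leu, Lys, Phe and Val. Of the 403 annotated tRNA genes, 44 lay inside cluster spans. Cluster regions lay on a tRNA gene in 39 of 1810 cases (2.15%), and shared distal regions outside clusters in 106 of 70788 (0.150%). The GENCODE annotation used to call regions distal does not place a start at these genes.

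Regions on tRNA genes were more unequal between the pools than other regions. On the log2 scale the 39 cluster regions on tRNA genes were higher in replicate 2 by a median of 0.68 (0.34 to 1.14). The median was 0.61 in the 106 such regions outside clusters. Other regions of the same 9 clusters had a median of 0.39 (n = 29), and regions of the other 288 clusters had 0.30 (n = 1742). The medians of both tRNA groups were thus above those of the other groups, while the single values overlapped. Their median ratio of observed to expected CpG was 0.82, against 0.25 in the regions of the other clusters. tRNA genes have near-identical copies in the genome, and how the authors placed reads that fit several copies was not given in the sources used here. With 1 library per pool, a difference between libraries and one between pools cannot be told apart.

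**Figure D3:**
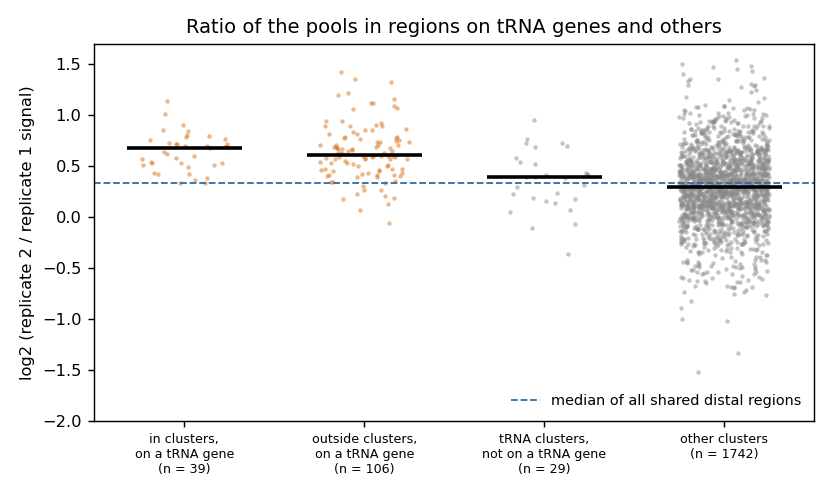
Log2 ratio of replicate 2 to replicate 1 signal for single regions (points) with the median as a black bar. Orange groups lie on tRNA genes, in clusters (median 0.68) and outside them (0.61), and grey groups are the other regions of tRNA clusters (0.39) and the regions of the other clusters (0.30). The dashed line is the median of all shared distal regions, 0.34.

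Among the genes of steroid synthesis, the strongest cluster lay over Star. Star encodes the protein that moves cholesterol to the inner mitochondrial membrane, where steroid synthesis starts. The cluster (chr8:25803321-25815840, rank 5) had 11 regions with 28.0 in replicate 1 and 32.6 in replicate 2. It ran from before the gene (chr8:25806555-25815982, plus strand) to near its end. By their midpoints, 3 regions lay in introns, 1 was intergenic and 7 lay in exons, the first of these before Star in Lsm1. The intergenic one, printed above, was the strongest, with 8.57 in replicate 1 and 7.77 in replicate 2. A region at the end of the gene, chr8:25814721-25815260, had 3.87 and 7.20. It was the next strongest in both pools, far below the first in replicate 1 and close to it in replicate 2.

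The strongest Star region lay 2114 bp from the basic Star start. It ended 15 bp before a second Star start at chr8:25806555, which only the full GENCODE set holds. Measured against the full set, which was an alternative chosen after seeing this, 135 cluster regions (7.46%) in 67 clusters lay within 1 kb of a start, and 4.40% of the regions outside clusters did. The Star cluster then had 8 regions and remained a cluster. The promoter regions of Star itself, within 1 kb of the basic start and therefore no part of the cluster, had 5.44 and 6.52.

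Fdxr and Cyp21a1 were the other steroidogenic genes near a cluster. Fdxr encodes ferredoxin reductase, which passes electrons to mitochondrial P450 enzymes. Its first cluster (chr11:115269515-115278476, rank 27) had 8 regions with 17.2 and 21.2. The strongest, in an intron, had 6.49 and 8.27. A second cluster of 8 regions followed 3684 bp away, so that the pair held 16 regions over 23766 bp. Promoter regions of Fdxr had 12.6 and 13.8. Cyp21a1 encodes steroid 21-hydroxylase, and its cluster (chr17:34795039-34803623, rank 51), which also covered the pseudogene Tnxa, had 9 regions with 18.6 and 13.5. Its log2 ratio of -0.46 was the lowest of the 297 clusters. It ranked 24 by replicate 1 and 88 by replicate 2. This locus is duplicated, with a Cyp21 pseudogene nearby, and the placing of reads between the copies was not given in the sources used here. The remaining 17 of 20 steroidogenesis genes had no cluster within 50 kb. The 3 genes with one made 15% of this list, against 2.40% of all protein-coding genes. A list of 12 housekeeping genes had 2 near a cluster (16.7%).

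**Figure D4:**
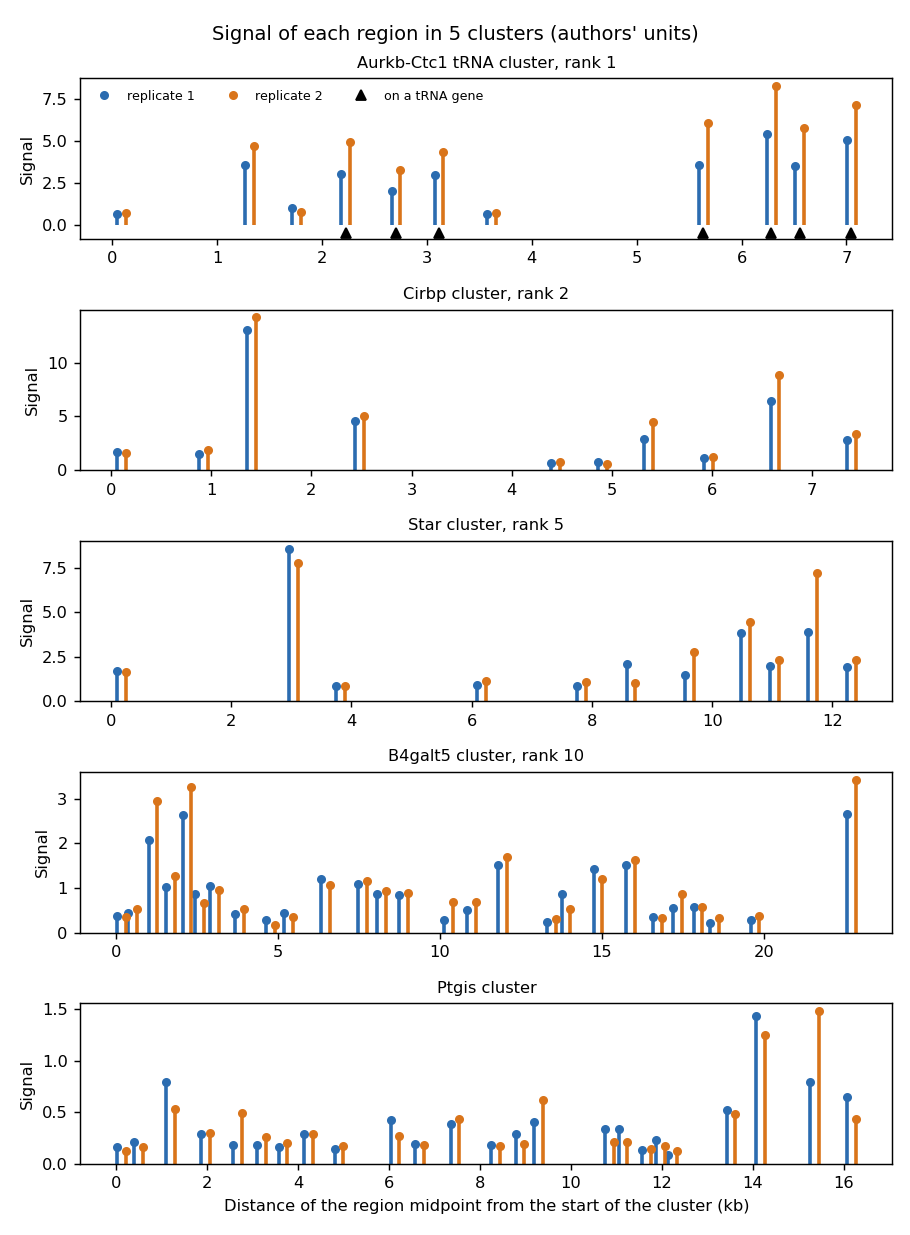
Signal of each region (authors' units) against the distance of its midpoint from the start of the cluster in kb, for 5 clusters. Blue is replicate 1, orange is replicate 2, and triangles mark regions on a tRNA gene. In the Cirbp cluster 1 region reached 13.0 and 14.2, while in the B4galt5 cluster no region passed 2.67 in replicate 1 or 3.43 in replicate 2.

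The potassium channel gene Kcnk3 (TASK-1, which sets the membrane potential of zona glomerulosa cells) had a cluster before it and another at its end. The first, at chr5:30550421-30555340, beside Cib4, had 5 regions with 15.4 and 17.6. A single region, the one printed above with an NR5A1 match, gave 7.71 and 8.04 of that. The second, at chr5:30624981-30632540, began inside the end of the gene and had 11 regions with 11.5 and 13.9. Its regions covered 83.7% of the span, with a median gap of 60 bp, the lowest of all clusters. The strongest region had 2.898 and 3.34. Kcnk3 promoter regions had 2.01 and 2.17. Cacna1h, a T-type calcium channel gene of the same zone, had a cluster of 5 regions with 6.90 and 8.42 at 23263 bp.

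Clock genes were near clusters in 5 of 19 cases, against 2.40% (525 of 21911) of all protein-coding genes within 50 kb. These were Cry2, Dbp, Nfil3, Nr1d1 and Per1. For Per1 the cluster was the second tRNA cluster described above, 27277 bp from its TSS. The lists were drawn up with earlier results of these data in view, so the count is a description. The Nr1d1 cluster (chr11:98782281-98789160, rank 4) lay between Nr1d1, which encodes the clock repressor REV-ERB alpha, and Msl1. Its 6 regions, all intergenic, had 30.7 and 36.4. The strongest, printed above, had 10.8 and 11.5, and the next had 6.29 and 8.44. Nr1d1 promoter regions had 14.7 and 18.1. The thyroid hormone receptor gene Thra lay 40408 bp from the same cluster.

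The other clock clusters were weaker. Dbp and Nfil3 encode bZIP factors that act on the same DNA element in opposite directions. The Dbp cluster had 5 regions with 16.9 and 21.3, 1557 bp from its TSS. The Nfil3 cluster spanned a Nfil3 start and had 8 regions with 13.6 and 15.3. Cry2, a repressor of the clock, had 5 regions with 4.55 and 5.74. Promoter regions of Dbp had 14.8 and 17.2 and those of Nfil3 1.75 and 2.26. A strong promoter and a strong cluster thus did not always go together.

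Lists for the response to hormone and stimulus had 2 to 4 genes each near a cluster, or 11.1% to 14.3% of a list, against the 2.40% of all protein-coding genes. Immediate early genes had 2 of 18. Junb, an AP-1 subunit, had 6 regions with 21.7 and 27.1 (chr8:84973921-84981260, rank 14). Nr4a3, an orphan nuclear receptor, had 5 regions with 13.5 and 16.2, of which chr4:48043341-48043640 gave 6.75 and 7.35. Both lost their cluster when distal was counted from the full annotation. In cyclic AMP signalling, the pathway by which ACTH acts, 3 of 24 genes were near a cluster. Adcy9, an adenylyl cyclase, lay 49239 bp from a cluster of 5 regions with 10.9 and 14.6. Pde4a, a phosphodiesterase, had a cluster in its introns with 5.68 and 8.66. Akap1, which anchors protein kinase A to mitochondria, had one 24501 bp from its TSS, with 5.26 and 5.61. Of 14 glucocorticoid response genes, Per1 and Nfkbia had one. That near Per1 was the tRNA cluster beside Borcs6. The cluster 25438 bp from the Nfkbia TSS had 6.17 and 7.49. Nuclear receptors had 4 of 29, namely Esrra, Nr6a1, Rara and Thra. The Esrra cluster lay at Plcb3 and Bad, 28833 bp from the Esrra TSS, and it too was lost with the full annotation. The 15 regions near Rara, a retinoic acid receptor gene, summed to 17.0 and 19.2.

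None of the 25 chromaffin genes and none of the 22 genes of cholesterol synthesis had a cluster within 50 kb. The same held for 15 endothelial, 12 macrophage and 14 fibroblast and mural genes. At the background share of 2.40%, lists of this size hold few or no genes near a cluster. Of lists for other cells, Schwann and sustentacular cells had 1 of 9 (Sox10) and lymphocytes 1 of 10 matched genes (Cd4). Forebrain neurons, a tissue outside the adrenal gland, had 1 of 11 (Rbfox3). Sox10, Cd4 and Rbfox3 had no promoter peak in both pools. The lists for adipocytes (10 genes), hepatocytes (11 matched), kidney tubules and podocytes (12), skeletal muscle (10) and spermatogenesis (10) had no gene near a cluster.

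The first 12 clusters also included some near no gene of the adrenal lists. The Cirbp cluster (chr10:80158552-80166100, rank 2) had 10 intergenic regions before the basic start of Cirbp, a cold-inducible RNA-binding protein gene, with 35.2 and 41.9. The last one crossed the start of the full gene record at chr10:80165985, and 8 regions were left in the cluster when distal was counted from the full annotation. The region printed above gave 13.0 and 14.2 of this, with a GC content of 65.3%. Further clusters lay 5371 bp and 8265 bp to either side, which are 2 of the 14 pairs of neighbouring clusters within 50 kb of each other. The Zfp503 cluster (chr14:21981501-21995820, rank 3) ran over the gene, which encodes a zinc finger repressor, and had 15 regions with 32.3 and 41.8. The Kdm6b cluster (chr11:69417561-69420580, rank 12) held 5 regions in 3020 bp, with 22.1 and 27.3, near a gene for a histone H3 lysine demethylase. The cluster nearest Lrrc74a (chr12:86790781-86801960, rank 7) had 6 regions with 25.04 and 31.98 and no protein-coding TSS within 50 kb, the nearest being 56398 bp away.

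The 3 clusters with the most regions had 27, 24 and 22. The B4galt5 cluster (chr2:167291321-167314140, rank 10) had 27 regions with 24.6 and 27.7, and its strongest region, printed above, gave 11.7% of the signal, the lowest share of all clusters. It covered the end of B4galt5, which encodes a galactosyltransferase of glycolipid synthesis, and DNA beyond that end. A second cluster of 24 regions followed after 10820 bp, towards Ptgis, the prostacyclin synthase gene, with 8.80 and 8.87. Together they held 51 regions over 50080 bp. The Tbx2 cluster (chr11:85823301-85849380, rank 9), over a T-box factor gene, had 22 regions with 25.6 and 28.8. The cluster at Synpo, which encodes an actin-associated protein, had 17 regions with 24.7 and 27.0 (rank 11). Across chromosomes, chromosome 11 held 39 clusters (13.1%) against 6.84% of the shared distal regions. Of its shared distal regions 5.41% lay in clusters. That share was highest on chromosome Y, at 28.1%, but there it was 9 of 32 regions in 1 cluster.

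Cluster regions differed from the other shared distal regions in the features below, given as medians or shares without a test because regions of a cluster share their surroundings. Width was 280 bp against 228 bp and GC content 53.4% against 49.5%. Observed over expected CpG passed 0.6 in 13.3% against 4.55%. By their midpoints, 8.73% against 5.398% lay in an exon, 52.9% against 53.6% in an intron, and 38.3% against 41.0% were intergenic. Within 1 kb of a RefSeq transcript start, tRNA genes included, lay 14.03% (254 regions in 94 clusters) against 4.79%. Signal and distance to a TSS entered the rule and are a description only. Signal per region was 1.13 against 0.721 in replicate 1 and 1.45 against 0.919 in replicate 2, and the distance was 10153 bp against 15284.5 bp. The midpoint of 166 clusters lay in a protein-coding gene, and 78 clusters had no protein-coding TSS within 50 kb.

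Motifs were counted on both strands in the 75 bases to either side of each midpoint. AP-1 (TGANTCA) matched 16.1% of cluster regions and 23.3% of the others, with 23.2% over all shared distal regions. CTCF, the insulator factor, matched 1.66% against 3.23% (3.19% over all). NR5A1 was searched as CAAGGTCA, which matched 5.36% of cluster regions (6.33% over all), and as a second form, CAAGGCCA, which matched 5.97% (6.62% over all). In either form it matched 10.9% against 12.6% of the others (12.5% over all). The E-box form CAGCTG matched 14.8% against 13.3% (13.3% over all). Over whole regions the shares were 21.8% against 28.3% for AP-1, 1.71% against 3.39% for CTCF, 15.6% against 15.7% for NR5A1 and 26.8% against 19.9% for the E-box. Cluster regions are wider, and over whole regions the NR5A1 shares were nearly equal and the E-box difference was larger.

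The lower AP-1 and CTCF shares held at like signal. In the lowest signal quartile AP-1 matched 8.44% of cluster regions against 20.1% of the others, and in the highest 20.8% against 29.5%. CTCF matched 0.649% against 2.10% in the lowest and 1.65% against 3.47% in the highest. Only 30 cluster regions had a CTCF match in all, and the lowest quartile held 154 cluster regions. The CTCF shares of the lower quartiles thus rest on very few matches. Leaving out the 9 tRNA clusters gave 16.5% for AP-1 and 1.72% for CTCF. By cluster, 180 of the 297 (60.6%) had an AP-1 match in at least 1 region and 145 (48.8%) an NR5A1 match. The B4galt5 cluster had the most regions with an NR5A1 match over the whole region, 7 of 27, and also the most with AP-1, 8 of 27. The Star cluster had 2 of 11 with AP-1 and none with NR5A1. Absence of these letters says nothing of the factor.

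The other consensuses each matched under 3% of cluster regions. NR4A (AAAGGTCA) matched 1.88% of cluster regions and 2.62% of all shared distal regions. GATA factors, with AGATAAG, had 2.60% and 3.41%. For TEAD factors the form CATTCCA had 2.43% and 3.2%. FOX factors were searched by TGTTTAC, with 1.44% and 1.68%. The SOX form AACAATGG had 0.442% and 0.47%. NFI (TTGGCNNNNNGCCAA) had 1 cluster region, 0.0552%, and 0.106% over all. A few had higher shares in clusters, each on under 25 cluster regions. Apart from ETS, with 9 regions, these shares lay close to those over all. The glucocorticoid response element (GNACANNNTGTNC) had 1.27% and 1.07%. The cyclic AMP response element (TGACGTCA) had 0.608% and 0.532%. MEF2 had 0.608% and 0.547%, and ETS (CCGGAAGT) had 0.497% and 0.274%.

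**Figure D5:**
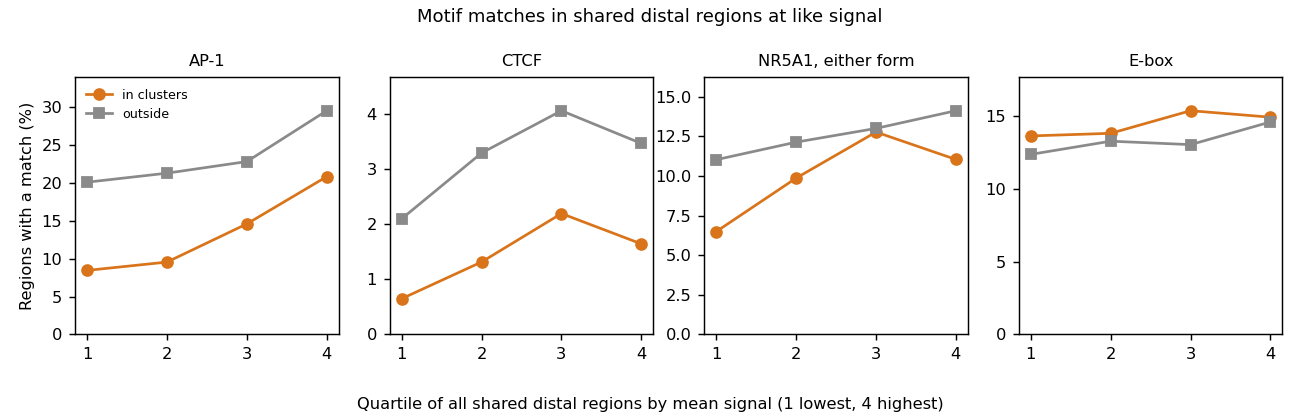
Share of shared distal regions with a match within 75 bases of the midpoint (%) in each quartile of mean signal, from 1 (lowest) to 4 (highest). Orange is cluster regions and grey is the others. AP-1 and CTCF were lower in clusters in all 4 quartiles, at 20.8% against 29.5% and 1.65% against 3.47% in the highest. CTCF matched only 30 cluster regions over all quartiles.

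Footprints are short stretches that a bound protein shields from the enzyme, and the authors' calls came from the same libraries. Cluster regions had 8.59 per kb in replicate 1 and 9.06 in replicate 2, against 8.62 and 9.31 in the other regions. Footprints rise with signal, and 47.0% of cluster regions were in the highest signal quartile. In that quartile they had 11.3 and 12.3 per kb against 12.4 and 13.2, and they were lower in each of the other quartiles too. Cluster regions are wider, which a density per kb also depends on, and that part was not tested. Between the peaks of a cluster the chromatin was mostly not listed by the authors' table of false discovery rates. In gaps with no peak of either pool, 13.6% of bases in replicate 1 and 17.7% in replicate 2 were listed under 0.05, against 89.1% and 94.5% in cluster regions. The other shared distal regions had 88.2% and 96.0%. The gaps were chosen for holding no peak, and peaks and rates come from the same libraries. The contrast between gaps and regions therefore follows largely from that choice and is a description only.

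Genes near clusters had a promoter peak in both pools more often than genes at large. This was so for 425 of 525 genes (81.0%) within 50 kb and for 146 of 163 (89.6%) within 10 kb, against 61.9% of all 21911 protein-coding genes. Where both pools had one, the median promoter signal near clusters was 4.04 and 5.30, against 3.002 and 4.07 over all genes. Promoter peaks come from the same lists as the clusters, and gene density, which moves both, was not tested. Kdm6b, Olfr1423 and Ptgis had a cluster within 50 kb and no promoter peak in both pools.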

How the data were processed

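DNase-seq of 2 pools of mouse adrenal gland was analysed from processed files. Peak signal values and FDR values were used as the authors deposited them for each sample, on assembly mm10 per the labels. Peak signal was summed and compared as an amount, and only the FDR values were treated as p-value type numbers. The texts deposited with the samples state that peaks came from filtered alignments of the same library. For the aligner, the peak caller and the scaling of the signal, no name is given in the sources used here. Regions, chains, clusters, motif matches and gene distances were computed in Python 3.11.15 with numpy 2.4.6 and pandas 2.3.3, and the cluster search was tested on simulated data. Summed signal is the sum of the deposited signal of the peaks of a pool in a region. Named clusters were the 12 of highest summed signal, the 3 with the most regions and up to 2 per adrenal gene list. Clusters near other listed genes, the Cyp21a1 cluster's low ratio and the tRNA clusters were named after their values were seen. Members and lists were chosen with earlier results of these data known. With 1 group of 2 libraries, no test was made. Alternatives to the peak list, overlap, chaining distance, region number and distance from a TSS are given at the end. One annotation alternative was added after seeing the data.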

Additional observations from a re-analysis of the deposited data

How the results depend on the processing

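No paired analysis was possible because there was 1 group and no comparison between groups. The 297 clusters held 2.49% of shared distal regions and 3.95% of their signal, and 2.40% of protein-coding genes lay near one. These totals moved with nearly every choice. With the shorter peak lists there were 67 clusters (1.04% of regions, 1.47% of signal, 0.570% of genes). With the 50% of peaks of most signal there were 163 (3.41% of signal, 1.53% of genes). An overlap of 50% of both peaks gave 161 (1.54%, 2.51% and 1.27% of regions, signal and genes). Chaining at 2 kb gave 162 (1.41%, 2.21%, 1.36%) and at 5 kb 636 (5.31%, 8.10%, 4.90%). Clusters of 4 or more regions numbered 953 (6.11%, 9.02%, 6.54%) and of 6 or more 112 (1.22%, 1.92%, 1.08%). Counting distal from 500 bp gave 3.42%, 5.39% and 4.003%, from 2.5 kb 2.09%, 3.32% and 1.58%, from protein-coding transcripts only 2.96%, 4.78% and 2.79%, and from all GENCODE transcripts, added after seeing the data, 2.17%, 3.45% and 1.69%. Genes within 100 kb of a cluster were 4.54% and within 20 kb 1.095%. A single pool, where no peak of the other is needed, gave 673 to 1318 clusters, 5.15% to 7.74% of regions, 6.94% to 10.4% of signal and 5.51% to 9.37% of genes. Of the first 12 clusters, 10 to 12 overlapped a cluster in each alternative. The Nr1d1 and Lrrc74a clusters were lost at 2 kb, those at B4galt5 and Synpo with the 50% of peaks of most signal, and the Kdm6b cluster with the shorter lists, the 50% overlap and 6 regions. Of the 23 named clusters 15 to 23 were kept. Clusters were lost at Nr4a3 and Pde4a (5 settings each), Adcy9 (4), Junb, Esrra and Nfkbia (3 each), Ptgis (2), Fdxr (distal from 2.5 kb), Borcs6 near Per1 (shorter lists) and Cib4-Kcnk3 (6 regions), and with all GENCODE transcripts at Junb, Esrra and Nr4a3. The ratio of the share inside clusters to that outside ran from 0.597 to 0.797 for AP-1, 0.281 to 0.598 for CTCF, 0.520 to 0.922 for NR5A1 and 0.996 to 1.18 for the E-box over the settings that redraw the clusters. Matches over whole regions gave ratios of 0.769, 0.506, 0.995 and 1.35. Clusters with a tRNA gene numbered 5 to 21.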
